A study of Mus musculus with 34 samples.

Results

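The libraries described here were the 6 Rfx3 knockout (Rfx3-/-) libraries among 34 libraries of cultured mouse ependymal cells, chosen by their measured level of Mcidas. A library was called Mcidas-low when its Mcidas level was below 40 CPM (counts of a gene per 1e6 counts of the library, after TMM scaling) and Mcidas-retained when it was at 40 or more. Of the 6 libraries, 3 were Mcidas-low (knockout replicates 4, 5 and 6) and 3 were Mcidas-retained (replicates 1, 2 and 3). The members just inside and just outside the limit had 22.5 and 65.9 CPM of Mcidas. Because the libraries were sorted by a measured level, every difference between Mcidas-low and Mcidas-retained libraries is given as a description, with no test.

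The study set Rfx1-/-, Rfx2-/- or Rfx3-/- ependymal cells against wild-type siblings. Each library is bulk RNA of a primary culture from E18.5 lateral ventricular walls, taken 4 days after serum was withdrawn from confluent cells. The labels give C57BL/6 as the background of all groups used here, and the titles add the term OF1 without explaining it. Both knockout states are thus Rfx3-/- cultures of the same age and treatment, and the 6 Rfx3-line wild types are their Rfx3+/+ siblings. Nothing in the labels says whether replicates are separate embryos or separate cultures, or gives a date or batch. Any p-value thus measures only the spread between these libraries. The replicate numbers follow the split, with 4, 5 and 6 Mcidas-low and 1, 2 and 3 Mcidas-retained. What the numbers stand for is not stated. A difference in preparation between these sets, if there was one, cannot be told apart from the split.

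Ependymal cells carry many motile cilia. They arise from radial glia through a relay of regulators: the geminin-like protein GEMC1 (Gmnc) turns on multicilin (Mcidas), which joins E2F4 or E2F5 and DP1 to switch on genes for the mass production of centrioles and, through Foxj1, Myb and other factors, the genes of the motile axoneme. Regulatory factor X (RFX) proteins, among them RFX3, bind the X-box, a paired sequence in promoters of many ciliary genes. Gfap marks astrocytes and the glial progenitors from which ependymal cells come.

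Mcidas lies on chromosome 13 between Ccno, which encodes cyclin O and is needed for centriole amplification, and Cdc20b, which hosts the miR-449 microRNAs. Deup1, on chromosome 9, encodes the scaffold of deuterosomes, the platforms on which most centrioles of a multiciliated cell form. The 250 bases before the RefSeq start of these genes are shown because all 4 were lower in the Mcidas-low libraries. They come from the RefSeq promoter table (GRCm38.p6) and are written on the gene's own strand, with capitals marking either an X-box-like match or an E2F-type match. The X-box letters searched were GTNNCC, then a gap of 0 to 3 bases, then NGNAAC, and the E2F letters were TTCCCGC, both on either strand.
Ccno (chr13:112987552-112987801, plus strand): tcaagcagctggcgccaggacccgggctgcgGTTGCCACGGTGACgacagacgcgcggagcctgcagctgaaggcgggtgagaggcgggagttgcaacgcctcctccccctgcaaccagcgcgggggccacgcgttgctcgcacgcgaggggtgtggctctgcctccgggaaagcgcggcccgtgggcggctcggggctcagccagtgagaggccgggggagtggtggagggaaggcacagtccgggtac
Mcidas (chr13:112993618-112993867, plus strand): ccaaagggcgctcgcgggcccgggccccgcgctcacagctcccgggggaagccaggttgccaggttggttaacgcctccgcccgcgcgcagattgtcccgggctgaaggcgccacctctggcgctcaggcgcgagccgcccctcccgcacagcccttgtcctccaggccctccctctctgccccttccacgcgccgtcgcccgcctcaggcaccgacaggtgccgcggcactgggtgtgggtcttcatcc
Cdc20b (chr13:113035129-113035378, plus strand): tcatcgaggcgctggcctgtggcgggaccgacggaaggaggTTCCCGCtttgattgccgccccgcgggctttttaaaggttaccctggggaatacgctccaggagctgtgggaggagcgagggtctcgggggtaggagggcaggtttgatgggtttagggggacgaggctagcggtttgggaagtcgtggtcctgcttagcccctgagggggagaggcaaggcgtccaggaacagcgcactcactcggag
Deup1 (chr9:15627847-15628096, minus strand): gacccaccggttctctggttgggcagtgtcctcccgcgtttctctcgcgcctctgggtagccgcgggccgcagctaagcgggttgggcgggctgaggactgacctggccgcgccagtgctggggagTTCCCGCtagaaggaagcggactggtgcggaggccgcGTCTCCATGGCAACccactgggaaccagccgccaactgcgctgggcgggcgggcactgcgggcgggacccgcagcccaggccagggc
The Ccno window held 1 X-box match, which ended 205 bases before the start. The Deup1 window held 1 X-box match, 73 bases before the start, and 1 E2F match, 117 bases before it. RefSeq gives Deup1 another start, whose window (chr9:15628307-15628556, minus strand) held neither. The Cdc20b window held 1 E2F match, 202 bases before the RefSeq start. This window lies inside the Cdc20b span of the GENCODE annotation (chr13:113035111-113091195), so the match comes after the start given there. The Mcidas window held neither set of letters. The windows of Foxn4 and Myb, which were also lower in the Mcidas-low libraries, were searched too. They held neither set and are not shown.

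Mcidas itself had 20.01, 22.5 and 13.3 CPM in the Mcidas-low knockouts (replicates 4, 5 and 6), 93.7, 90.4 and 65.9 CPM in the Mcidas-retained knockouts (replicates 1, 2 and 3), and 69.2 to 112 CPM with a median of 93.9 in the 6 wild types. The retained libraries thus lay within or just under the wild-type range, and the low libraries were 4.52-fold below the retained ones. Rfx3, the targeted gene, had 40.1, 41.3 and 35.2 CPM in the Mcidas-low knockouts, 46.0, 51.7 and 24.9 CPM in the Mcidas-retained knockouts and 157 to 209 CPM (median 172) in the wild types. Rfx3 was therefore low in all 6 knockouts to a like degree, and the low libraries fell inside the range of the retained ones. Over all 6 knockouts against the 6 wild types, the Rfx3 log2 fold change was -2.14 ± 0.15 (SE, edgeR quasi-likelihood test, adjusted p = 4.16e-05).

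Gmnc, the regulator upstream of Mcidas, had 143, 156 and 134 CPM in the Mcidas-low knockouts, 150, 157 and 103 CPM in the Mcidas-retained knockouts and 106 to 139 CPM (median 124) in the wild types. Its levels overlapped between the states, and the library with the lowest Gmnc was Mcidas-retained replicate 3. Over all 6 knockouts against the wild types Gmnc did not pass the test (log2 fold change 0.20 ± 0.11 SE, edgeR adjusted p = 0.201), but it was higher when knockout replicate 3 was left out (0.27, adjusted p = 0.0195).

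Other features of the libraries moved with the split. Total counts were 26.1 to 43.1 M (M for 1e6 counts) in the Mcidas-low knockouts, 23.1 to 37.3 M in the Mcidas-retained knockouts and 24.7 to 53.4 M in the wild types, so depth overlapped. All 3 Mcidas-low libraries carried Y-linked reads (264 to 277 CPM over Y-linked genes), as did retained replicate 2 (222 CPM), while retained replicates 1 and 3 had 10.1 and 19.4 CPM. Among the wild types, replicates 1 and 6 carried Y-linked reads at 253 and 246 CPM. Retained replicate 3 had a trend with transcript length. Each library's deviation from the wild-type mean of each gene (the other wild types for a wild type) was correlated across genes with log2 exon length. The correlation was -0.47 in retained replicate 3, against -0.09 to 0.13 in the other 11 libraries of the Rfx3 line. Long transcripts thus read low there and short ones high. Where retained replicate 3 reaches or passes the wild types in single genes below, the part of this trend was not separated. In knockouts the deviation from the wild-type mean also holds any difference between knockouts and wild types. Wild-type replicate 6 stood apart from the other wild types in glial genes, as given beside each. For the knockouts against the wild types, fits with a term for Y-linked counts or with the length trend removed are given where they change a call. Between the 2 knockout states the part of Y-linked reads was not tested. List medians against retained replicate 2 alone are given at the end. Values without retained replicate 3 are given for some genes and lists only. Without it, genes with every Mcidas-low library below every retained one rose from 3306 to 4519 of 14340, and those above from 3167 to 4396. Mitotic genes lying above rose from 18 to 27 of 30. Distal appendage and basal body docking genes lying below rose from 6 to 11 of 13.

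Mcidas-low cultures had less RNA of many regulators that act with or after Mcidas. Against the wild types, the 21 listed regulators, Mcidas included, had a median log2 difference of -0.84 in Mcidas-low and -0.10 in Mcidas-retained cultures. For 5 of the 21, every Mcidas-retained library still lay below every wild type, against 12.7% of all genes. Of the 20 multiciliation regulators measured besides Mcidas, on which the libraries were split, 12 had every Mcidas-low library below every Mcidas-retained library and none lay above. Over all 14340 genes tested, 23.1% lay below in that way and 22.1% above. The median log2 difference of the 20 was -0.41 for Mcidas-low against Mcidas-retained libraries, where the median over all genes was 0.01. The low libraries lay below every wild type while the retained ones lay inside the wild-type range for 1 of these regulators, for 4 of 34 centriole amplification genes and for 1.41% of all genes. In bulk RNA, fewer multiciliated cells and less of these RNAs in each cell cannot be told apart.

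Ccno had 39.8, 44.4 and 25.1 CPM in the Mcidas-low knockouts, 168, 152 and 175 CPM in the Mcidas-retained knockouts and 115 to 182 CPM (median 156) in the wild types. The low libraries were all below every wild type, and the retained libraries were all inside the wild-type range. Foxn4, a forkhead factor expressed as multiciliated cells form, had 4.55, 5.55 and 3.27 CPM in Mcidas-low, 32.2, 29.2 and 18.497 CPM in Mcidas-retained and 24.6 to 38.1 CPM (median 32.7) in wild-type libraries. Myb, a transcription factor of early multiciliated differentiation, had 71.9, 81.9 and 50.6 CPM in Mcidas-low, 234, 210 and 168 CPM in Mcidas-retained and 181 to 254 CPM (median 218) in wild-type libraries. For Foxn4 and Myb, retained replicate 3 was under the lowest wild type, and the low libraries were far under it. Trp73, which encodes p73, differed by -1.44 between the states on the log2 scale, and Ankrd54 by -1.10.

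Foxj1, the master regulator of motile cilia genes, differed less. It had 763, 764 and 680 CPM in the Mcidas-low knockouts, 1480, 1435 and 1378 CPM in the Mcidas-retained knockouts and 1437 to 1729 CPM (median 1561) in the wild types. All low libraries were at roughly 0.514 times the retained mean on the log scale, and 2 of the 3 retained libraries lay just under the lowest wild type. Against the wild types, the 6 knockouts together did not pass the test for Foxj1 (log2 fold change -0.53 ± 0.20 SE, edgeR adjusted p = 0.0706), and they passed it when retained replicate 1, 2 or 3 was left out (adjusted p = 0.0324, 0.0454 and 0.0372), by DESeq2 (adjusted p = 0.0367) and with the length trend removed (-0.60, adjusted p = 0.0261). Mcidas over all 6 knockouts gave -0.88 ± 0.44 (adjusted p = 0.162) and Ccno -0.60 ± 0.43 (adjusted p = 0.338). For Ccno the 3 retained libraries sat among the wild types, and for Mcidas 2 did and replicate 3 lay just under them.

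Other members of the regulator list overlapped or differed less. E2f5, Gmnn, Rfx4, Jazf1 and Tfdp1 overlapped between the states, with log2 differences of -0.06, 0.07, 0.07, 0.09 and 0.08. Six3 also overlapped, with a difference of 0.39, and was higher over all 6 knockouts than in the wild types (0.52, edgeR adjusted p = 0.0147). E2f4, a partner of multicilin, was lower in the Mcidas-low libraries by 0.26 (log2) without overlap. Rfx2 had 69.4, 69.2 and 60.03 CPM in Mcidas-low, 99.3, 105 and 76.5 CPM in Mcidas-retained and 111 to 124 CPM (median 119) in wild-type libraries, so both knockout states were under every wild type and the low state was further under.

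**Figure D1:**
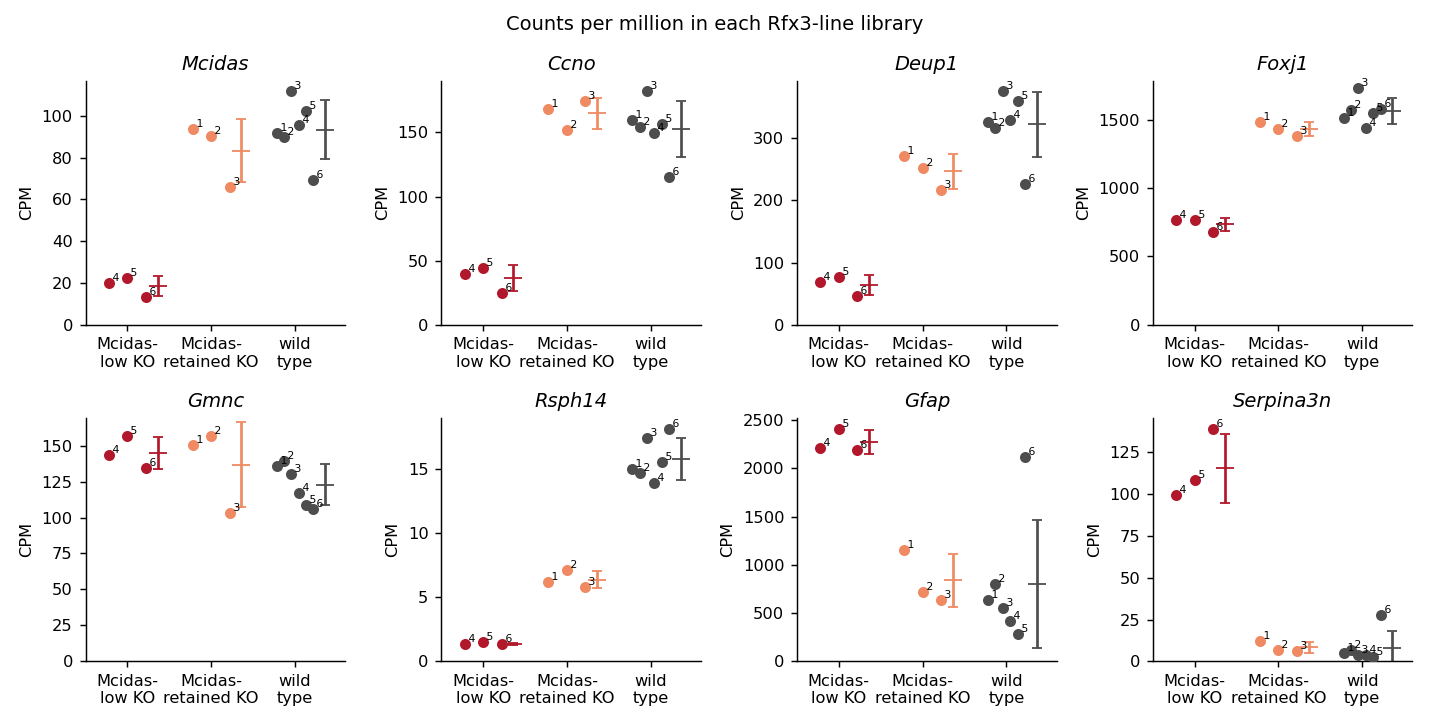
CPM of 8 genes in each Rfx3-line library (points, with the replicate number), for Mcidas-low knockouts, Mcidas-retained knockouts and wild types, with mean and SD beside the points (n = 3, 3 and 6). Mcidas, Ccno, Deup1 and Foxj1 are lowest in the Mcidas-low knockouts, Rsph14 is low in both states, Gmnc overlaps, and Gfap and Serpina3n are high in the Mcidas-low knockouts, with wild-type replicate 6 at 2115 CPM for Gfap and 27.98 CPM for Serpina3n.

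The neighbours of Mcidas on chromosome 13 separated the locus into members that differed and members that did not. Cdc20b had 9.39, 11.9 and 7.003 CPM in the Mcidas-low knockouts, 51.8, 52.9 and 26.1 CPM in the Mcidas-retained knockouts and 39.96 to 61.9 CPM (median 54.0) in the wild types. The adjacent genes Ccno (chr13:112987802-112990777), Mcidas (chr13:112993845-113000394) and Cdc20b (chr13:113035111-113091195) differed between the states by -2.22, -2.18 and -2.16 on the log2 scale. Among other genes measured within 300 kb, Slc38a9, Plpp1, Mtrex and Dhx29 on the Ccno side differed by 0.09, 0.10, 0.14 and 0.10, and Gpx8, which lies inside Cdc20b on the other strand, by -0.05. Gm10735, also inside Cdc20b on the other strand, differed by -0.35, BC067074 by 0.33, and Gzma, with very few reads, is not described. Cdc20b shares positions with Gpx8 and Gm10735, and no source used here says whether counting used strand, so their reads may be mixed.

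The libraries that the split did not use offer a separate look at genes that go with Mcidas. In the other 28 libraries (Rfx1 and Rfx2 knockouts and all wild types), each gene was fitted on the log2 level of Mcidas with a term for each of the 5 groups, so the slope is the log2 change of the gene for 1 log2 of Mcidas between libraries of the same group. Mcidas ranged over 11.9 to 23.2 CPM in the 6 Rfx2 knockouts, 45.5 to 77.5 CPM in the 4 Rfx1 knockouts, 25.9 to 86.6 CPM in the 8 Rfx2-line wild types, 48.7 to 79.3 CPM in the 4 Rfx1-line wild types and 68.3 to 111 CPM in the 6 Rfx3-line wild types, scaled here over all 28 libraries. All 6 Rfx2 knockouts and 2 of the 8 Rfx2-line wild types were below 40 CPM. Of 14773 genes, 12.9% had a slope with Mcidas and 11.3% a slope against it (edgeR quasi-likelihood test, adjusted p below 0.05). These slopes rest largely on the Rfx2-line wild types, whose replicates 1 and 3 lay farthest from their group mean: 1902 genes went with Mcidas and 1674 against it, but 1063 and 681 did so without those 2 libraries and 497 and 374 without the whole group.

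Within groups, 9 of the 12 regulators that separated the knockout states went with Mcidas, and E2f4, Rfx1 and Nkx2-1 did not pass the test (adjusted p = 0.874, 0.161 and 0.704). The slope was 0.84 ± 0.06 for Ccno (SE, edgeR adjusted p = 3.24e-10), 1.14 ± 0.10 for Cdc20b (adjusted p = 3.16e-08), 1.18 ± 0.08 for Foxn4 (adjusted p = 3.24e-10) and 0.72 ± 0.06 for Myb (adjusted p = 1.56e-08). Trp73 had a slope of 0.64 ± 0.07 (adjusted p = 3.85e-07) and Foxj1 one of 0.43 ± 0.06 (adjusted p = 3.95e-06), a smaller slope than that of Ccno, though the difference between the slopes was not tested. Gmnc had a slope of -0.01 ± 0.13 (adjusted p = 0.972), and leaving out each library in turn gave adjusted p of 0.607 to 0.999. Of all 20 regulators fitted, 10 had a slope with Mcidas and none against it. Without the Rfx2-line wild types, 6 of the 10 were called, and Ccno, Cdc20b, Foxn4, Myb, Trp73 and Foxj1 stayed below an adjusted p of 0.05 (0.000454, 0.00381, 0.00032, 6.97e-05, 0.00624 and 0.0202).

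**Figure D2:**
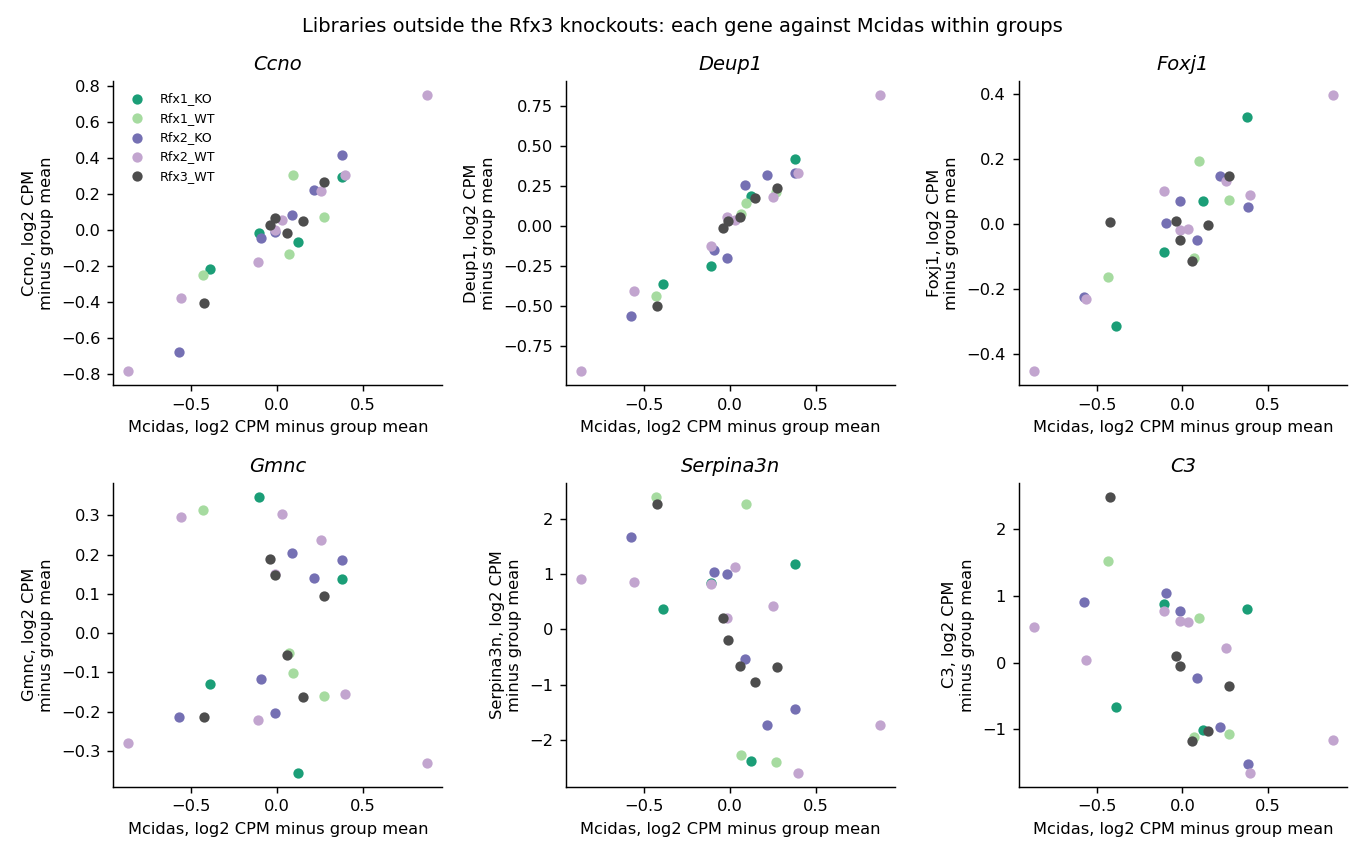
Log2 CPM of 6 genes against that of Mcidas in the 28 libraries outside the Rfx3 knockouts, each minus its group mean (points, coloured by group). Ccno, Deup1 and Foxj1 rise with Mcidas, Gmnc shows no slope (-0.01), and Serpina3n and C3 fall with wide scatter. The Rfx2-line wild types hold both ends of the Mcidas axis.

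Genes for making centrioles were lower in the Mcidas-low libraries and went with Mcidas in the 28 others. Deup1 had 68.5, 76.7 and 46.1 CPM in the Mcidas-low knockouts, 272, 251 and 217 CPM in the Mcidas-retained knockouts and 226 to 375 CPM (median 328) in the wild types. Only retained replicate 3 among the retained libraries was under the lowest wild type, and all low libraries were well under it. Mdm1, which encodes a centriolar microtubule-binding protein, had 24.6, 25.99 and 19.2 CPM in Mcidas-low, 88.8, 78.7 and 69.4 CPM in Mcidas-retained and 81.5 to 129 CPM (median 106) in wild-type libraries. In the 28 other libraries the slopes were 0.98 ± 0.05 for Deup1 (edgeR adjusted p = 2.31e-13) and 0.95 ± 0.10 for Mdm1 (adjusted p = 2.83e-07). Of the 34 centriole amplification genes, 22 lay below without overlap in the Mcidas-low libraries and 1 above (23.1% and 22.1% of all genes). With the length-affected retained replicate 3 left out, 31 lay below. Their median log2 difference was -0.60 between the states, and against the wild types it was -0.82 in the Mcidas-low and -0.30 in the Mcidas-retained libraries. Within groups, 30 of the 34 had a slope with Mcidas (22 without Rfx2-line wild types 1 and 3, 18 without that group).

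Of the 13 distal appendage and basal body docking genes, 6 lay below without overlap in the Mcidas-low libraries and none above. Over all genes 23.1% lay below and 22.1% above. For 7 of the 13, every Mcidas-retained library lay below every wild type, where 12.7% of all genes did so. Cby1, a protein of the ciliary base, had 78.3, 75.4 and 68.7 CPM in Mcidas-low, 162, 152 and 209 CPM in Mcidas-retained and 135 to 188 CPM (median 169) in wild-type libraries, so 2 retained libraries lay among the wild types and replicate 3 above them. Fam92b, which acts with Cby1 at the ciliary base, had 2.29, 2.61 and 1.42 CPM in Mcidas-low, 12.3, 11.2 and 13.9 CPM in Mcidas-retained and 21.9 to 28.9 CPM (median 25.0) in wild-type libraries. Fam92b was therefore under every wild type in both states, with a further 5.95-fold step between them.

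The pattern of Fam92b, low in both states and lower still in the Mcidas-low one, was common among genes of the motile axoneme. Across all tested genes, every Mcidas-low library lay below every wild type for 26.1%, and every Mcidas-retained library did so for 12.7%. All 6 knockouts lay below all 6 wild types for 9.83% of all genes and above for 5.65%. For the 42 radial spoke, nexin link and central pair genes the counts below were 42 for Mcidas-low, 38 for Mcidas-retained and 38 for all 6. The median log2 difference from the wild types was -2.04 in the Mcidas-low and -0.83 in the Mcidas-retained libraries. For the 26 axonemal dynein genes the counts were 25 and 21, and the medians -2.01 and -0.94. For the 25 dynein assembly and docking genes they were 24 and 19, with medians of -1.33 and -0.42. For the 32 tubulins, tip proteins and microtubule inner proteins they were 29 and 23, with medians of -1.89 and -0.54.

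Rsph14, a radial spoke protein, had 1.32, 1.48 and 1.34 CPM in the Mcidas-low knockouts, 6.15, 7.09 and 5.82 CPM in the Mcidas-retained knockouts and 13.9 to 18.1 CPM (median 15.3) in the wild types. The 3 sets of libraries formed 3 separate steps. Tekt4, a tektin of the axonemal doublets, formed the same steps with 2.96, 3.59 and 2.24 CPM in Mcidas-low, 16.3, 14.5 and 14.7 CPM in Mcidas-retained and 32.1 to 42.1 CPM (median 34.4) in wild-type libraries. Zmynd10, needed to assemble dynein arms in the cytoplasm, had 28.5, 31.1 and 19.99 CPM in Mcidas-low, 113, 99.6 and 99.0 CPM in Mcidas-retained and 134 to 170 CPM (median 144) in wild-type libraries. Dynlrb2, a roadblock light chain of dynein, had 34.1, 38.6 and 24.5 CPM in Mcidas-low, 133, 109 and 167 CPM in Mcidas-retained and 153 to 185 CPM (median 165) in wild-type libraries, so retained replicate 3 reached the wild types. Over the 6 knockouts against the wild types, Rsph14 fell by 2.04 ± 0.42 on the log2 scale (SE, edgeR adjusted p = 0.0067). In that test 12.9% of all genes fell and 10.6% rose. Of the radial spoke, nexin link and central pair list 38 of 42 fell, of the axonemal dyneins 21 of 26 and of the centriole amplification genes 20 of 34, and none of the 3 lists had a gene that rose. The centriole count was 9 without Mcidas-low replicate 4 and 25 without Mcidas-retained replicate 1, and 13 with a term for Y-linked counts.

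X-box-like letters stood in the 250 bases before the start of several genes that were lower in the Mcidas-low libraries. Those shown ended from 3 bases (Fam183b) to 151 bases (Lrrc23) before the start. The matches are shown with up to 6 bases on each side, from the RefSeq promoter table (GRCm38.p6), on the gene's strand, with capitals marking the match.
Rsph14 (chr10:75032582-75032606, minus strand): ctggcaGTCTCCTAGCAACcaggtc
Tekt4 (chr17:25471424-25471449, plus strand): ccacctGTGTCCTGGGAAACaaactc
Dynlrb2 (chr8:116504958-116504982, plus strand): tgcctgGTTGCCTAGCAACggggga
Lrrc23 (chr6:124779873-124779897, minus strand): ggcctcGTAACCTGGCAACtactga
Iqca (chr1:90153517-90153542, minus strand): cttgcaGTTGCCACGGAAACggaaac
Fam183b (chr11:58801961-58801982, minus strand): acatccGTTGCCTGGAAACtgt
Over the genes tested that had a promoter in the table, 6.04% of 11242 held the X-box letters in the 250 bases before the start. The share was 31.4% for radial spoke, nexin link and central pair genes (11 of 35) and 38.9% for dynein assembly and docking genes (7 of 18). Among genes at least 2-fold lower without overlap in the Mcidas-low libraries it was 17.3% (79 of 457), and among those at least 2-fold higher it was 1.65% (5 of 303). The E2F letters were in 7.9% of all promoters, in 25% of those of centriole amplification genes (7 of 28), in 5.47% of the 2-fold lower genes and in 5.94% of the 2-fold higher genes. Among other genes named in the text, matches not shown here stood before Ift22 and Rfx2 (log2 differences of -1.03 and -0.49). They stood as well before Six3 (0.39, overlapping) and Pdgfra (3.09), which were not lower in the Mcidas-low libraries. All these matches describe letters, and binding was not measured.

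In the 28 other libraries, 41 of the 42 radial spoke, nexin link and central pair genes, 23 of the 26 axonemal dyneins and 23 of the 25 assembly and docking genes had a slope with Mcidas, and none of the 3 lists had one against it. The slope was 0.68 ± 0.15 for Rsph14 (edgeR adjusted p = 0.00158), 0.80 ± 0.08 for Zmynd10 (adjusted p = 8.67e-08) and 0.74 ± 0.09 for Dynlrb2 (adjusted p = 9.47e-07). Without the Rfx2-line wild types, 6 radial spoke, 4 dynein and 11 assembly genes were called, and Rsph14 had an adjusted p of 0.174. Leaving out Rfx2-line wild type 3 alone gave 15 dyneins. Within the Rfx3-line wild types alone the median slope of the radial spoke list was -0.06, with no gene called by edgeR and none at an unadjusted p below 0.05. Within the Rfx1 line alone the median was 0.83, with no gene called by edgeR and 34 of 42 at an unadjusted p below 0.05.

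Values of long axonemal transcripts differed with and without retained replicate 3, and the part of its length trend was not separated from its other properties. Of the 15 dynein heavy chain genes, 4 lay below without overlap in the Mcidas-low libraries, and 14 did so when replicate 3 was left out. Dnah9, an outer arm heavy chain singled out after its values were seen, had 205, 184 and 146 CPM in Mcidas-low, 232, 262 and 93.5 CPM in Mcidas-retained and 312 to 477 CPM (median 348) in wild-type libraries. Only replicate 3 brought the retained libraries under the low ones. For the whole axonemal dynein list, 14 of 26 lay below with replicate 3 and 25 without it, against 3306 and 4519 of all 14340 genes.

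Cilium transport and gate genes differed by smaller amounts. The 23 genes of IFT-B (the intraflagellar transport complex that carries cargo to the ciliary tip) and its kinesin-2 motor had a median log2 difference of -0.60 between the states, and 18 lay below without overlap. Ift22 had 104, 104 and 93.1 CPM in Mcidas-low, 200.57, 188 and 228 CPM in Mcidas-retained and 180 to 211 CPM (median 199) in wild-type libraries, and its slope was 0.33 ± 0.04 (edgeR adjusted p = 8.04e-06). For the 32 transition zone and BBSome genes the median was -0.54, with 20 below and 1 above (23.1% and 22.1% of all genes). Tmem107, a transition zone membrane protein, had 36.4, 36.7 and 31.4 CPM in Mcidas-low, 99.4, 89.1 and 137 CPM in Mcidas-retained and 106 to 134 CPM (median 116) in wild-type libraries. The 13 genes of IFT-A and dynein-2 had a median of -0.46. In these 3 lists the retained libraries had medians of -0.22, -0.28 and -0.30 against the wild types. Every Mcidas-retained library lay below every wild type for 13 of 23, 17 of 32 and 6 of 13 of their genes, against 12.7% of all genes. The retained libraries of Ift22 and Tmem107, given above, were thus not typical of these lists.

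**Figure D3:**
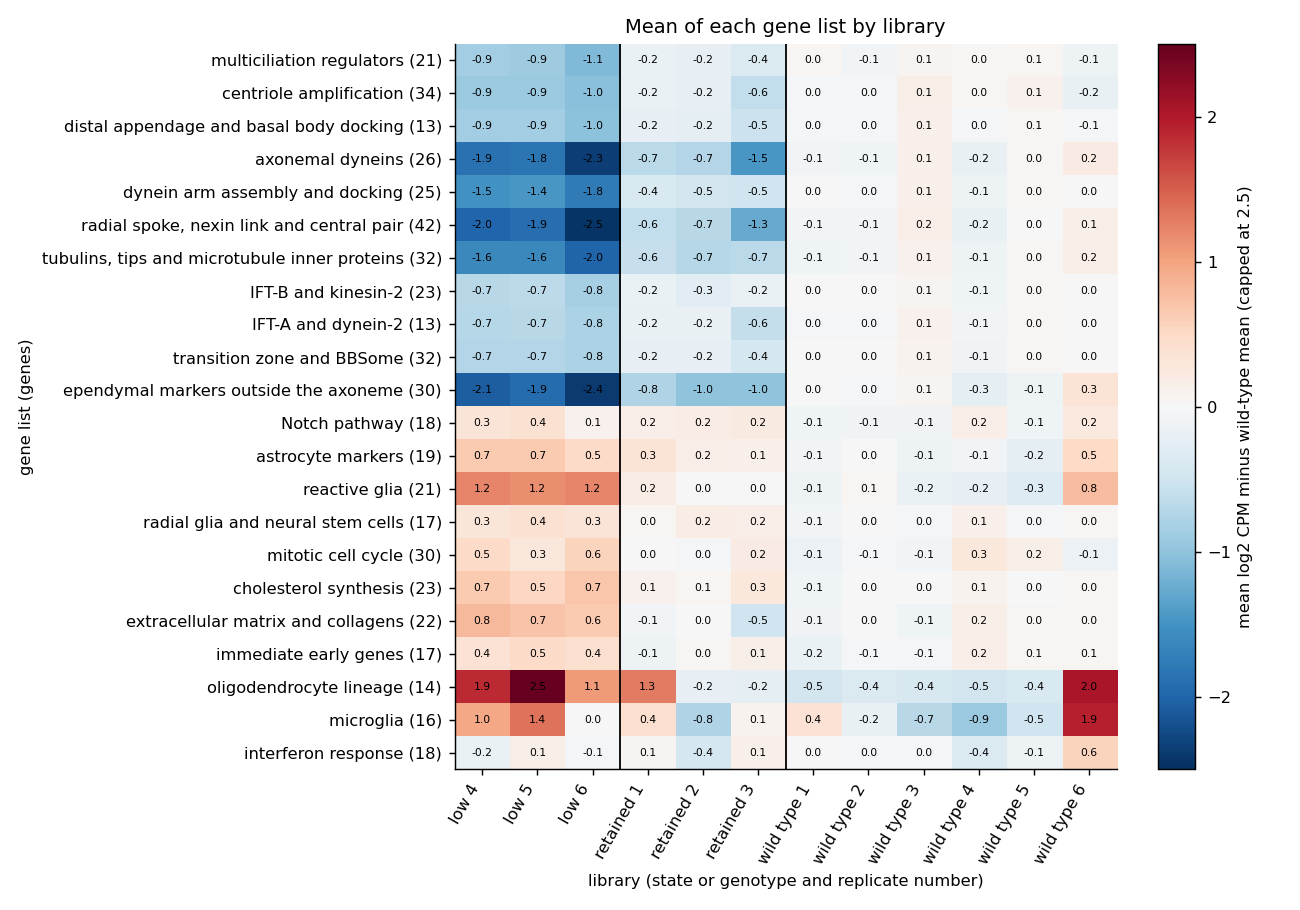
Mean log2 CPM of each gene list in each Rfx3-line library minus the mean of the 6 wild types (colour and printed value, with the number of genes per list), for Mcidas-low knockouts, Mcidas-retained knockouts and wild types from left to right. Ciliary lists are lowest in the Mcidas-low libraries, and reactive glia, oligodendrocyte and microglia lists are also high in wild-type replicate 6.

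Of the 30 genes listed as ependymal markers outside the axoneme, 22 lay below without overlap in the Mcidas-low libraries and 1 above. Over all genes 23.1% lay below and 22.1% above. The list holds Fam183b and Lrrc23, and whether every member acts outside the axoneme was not checked. In the 28 other libraries 10 of the 30 had a slope with Mcidas and 3 against it (12.9% and 11.3% of all genes). The summed level of the list overlapped between the states (15234.5 to 15691.2 CPM in Mcidas-low, 14168.4 to 17771.2 CPM in Mcidas-retained). The ependymal marker S100b also overlapped (10.3 to 19.7 and 8.94 to 15.1 CPM). A few ependymal genes were close to absent in the Mcidas-low libraries. Tmem212, a membrane protein expressed in ependyma, had 0.161, 0.188 and 0.0787 CPM in Mcidas-low, 1.60, 1.46 and 1.51 CPM in Mcidas-retained and 7.09 to 17.5 CPM (median 9.28) in wild-type libraries. These levels rest on 6, 8 and 2 reads in the Mcidas-low libraries and 61, 34 and 39 reads in the Mcidas-retained ones. All 3 sets were separate. Against the wild types the 6 knockouts fell by 3.65 ± 0.60 (log2, SE, edgeR adjusted p = 0.00226), and its slope on Mcidas in the 28 other libraries was 0.63 ± 0.42 and did not pass the test (adjusted p = 0.29). Fam183b varied among the retained libraries: it had 0.108, 0.211 and 0.118 CPM in Mcidas-low, 16.1, 0.989 and 1.36 CPM in Mcidas-retained and 17.0 to 72.2 CPM (median 64.6) in wild-type libraries. Retained replicate 1 stood well above the other retained libraries, and its slope on Mcidas was 0.37 ± 0.36 (adjusted p = 0.489).

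Among the 12 largest decreases were also genes outside the lists. Crip3, a cysteine-rich LIM protein, had 2.96, 3.15 and 1.26 CPM in Mcidas-low, 20.9, 18.8 and 23.2 CPM in Mcidas-retained and 23.6 to 43.4 CPM (median 35.3) in wild-type libraries, with a slope of 1.21 ± 0.18 (edgeR adjusted p = 2.93e-05). Fam50b had 0.646, 0.752 and 0.315 CPM in Mcidas-low, 4.74, 3.87 and 4.73 CPM in Mcidas-retained and 4.33 to 6.65 CPM (median 4.71) in wild-type libraries. Its retained replicates 1 and 3 lay within the wild-type range and replicate 2 just below it, and its slope was 1.21 ± 0.19 (adjusted p = 5.04e-05, or 0.0581 without the Rfx2-line wild types). Krt8, a keratin of simple epithelia, had 0.942, 1.06 and 0.747 CPM in Mcidas-low, 5.26, 5.72 and 5.93 CPM in Mcidas-retained and 9.30 to 14.3 CPM (median 12.03) in wild-type libraries. The remaining named decreases were Ccdc192, Tctex1d4, Ccdc121, Nme9 and Dmkn, by 2.54 to 3.06 on the log2 scale.

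**Figure D4:**
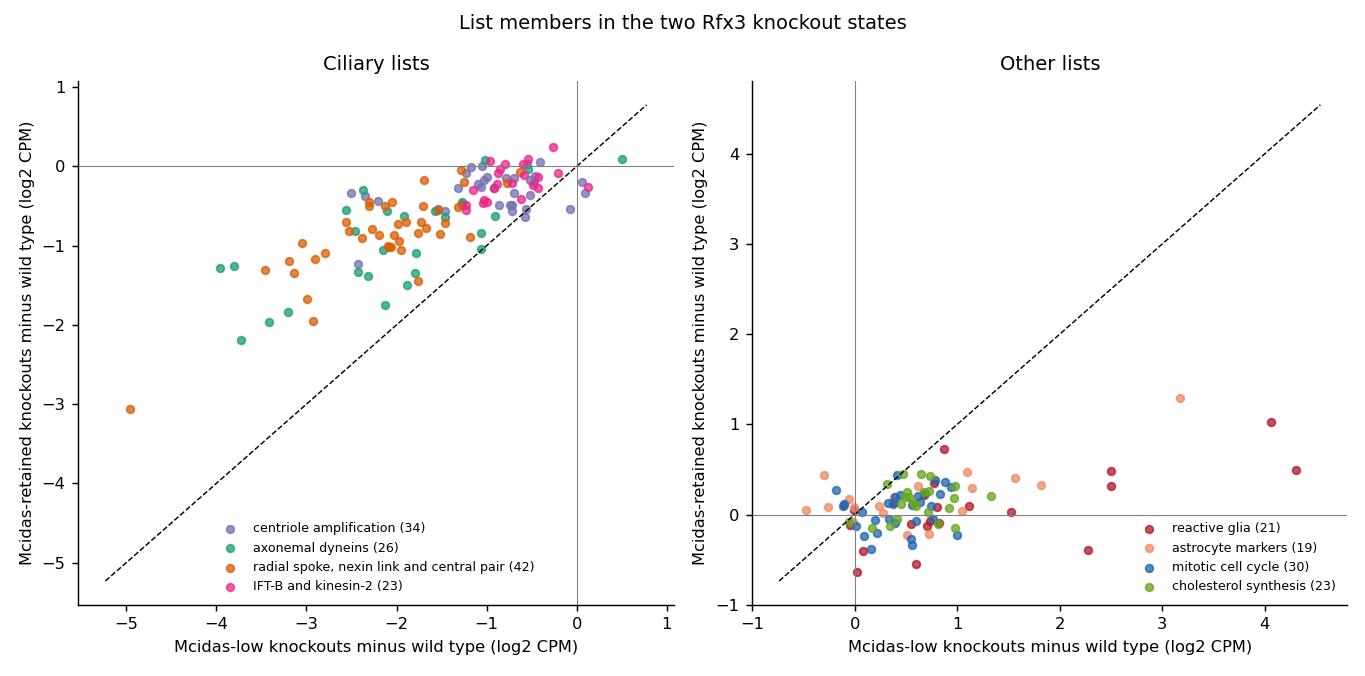
Each point is a gene of a ciliary list (left panel) or another list (right panel), placed by its mean log2 CPM minus the wild-type mean in Mcidas-low knockouts (horizontal) and Mcidas-retained knockouts (vertical), and the dashed line marks equal differences. Most ciliary genes lie above the line of equal differences. Centriole and IFT-B genes have medians of -0.30 and -0.22 on the vertical axis, and axonemal genes lie further below 0. Several reactive glia genes lie far to the right near 0 on the vertical axis.

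Reactive glia genes and several astrocyte genes were higher in the Mcidas-low libraries. Radial glia and neural stem cell genes were near the background, with 3 of 17 above, 4 below and a median of 0.24. Over all genes 22.1% lay above and 23.1% below. Gfap had 2213, 2409 and 2192 CPM in the Mcidas-low knockouts, 1156, 720 and 639 CPM in the Mcidas-retained knockouts and 286 to 2115 CPM (median 593) in the wild types. The wild-type maximum was replicate 6, which came close to the Mcidas-low libraries, and the other wild types reached 799 CPM. Serpina3n, a protease inhibitor of reactive glia, had 99.3, 108 and 139 CPM in Mcidas-low, 12.2, 6.88 and 6.32 CPM in Mcidas-retained and 2.93 to 27.98 CPM (median 4.30) in wild-type libraries. The low libraries were 14.0-fold above the retained ones and above every wild type. C3, the complement component made by reactive astrocytes, had 781, 632 and 524 CPM in Mcidas-low, 175, 137 and 42.4 CPM in Mcidas-retained and 58.0 to 746 CPM (median 115) in wild-type libraries, with wild-type replicate 6 again inside the Mcidas-low range. Osmr, the oncostatin M receptor, had 245, 226 and 257 CPM in Mcidas-low, 98.7, 95.9 and 66.6 CPM in Mcidas-retained and 70.9 to 121 CPM (median 77.6) in wild-type libraries.

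Of the 21 reactive glia genes, 15 lay above without overlap in the Mcidas-low libraries and none below (22.1% and 23.1% of all genes). Their median log2 difference was 0.80 between the states, and against the wild types it was 0.77 in the Mcidas-low and 0.06 in the Mcidas-retained libraries. For 6 of them the low libraries lay above every wild type with the retained ones inside the wild-type range, against 2.25% of all genes. Of the 19 astrocyte markers, 10 lay above and 3 below, with a median of 0.25. Aldh1l1, a folate enzyme used as an astrocyte marker, had 338, 244 and 289 CPM in Mcidas-low, 138, 112 and 140 CPM in Mcidas-retained and 87.5 to 129 CPM (median 91.6) in wild-type libraries. Over all knockouts against the wild types Serpina3n gave 2.90 ± 0.90 (log2, SE, edgeR adjusted p = 0.0351) and Gfap 0.96 ± 0.49 (adjusted p = 0.174). The Serpina3n call held in 4 of 12 fits that left out 1 library, with adjusted p up to 0.0792, and was lost with a term for Y-linked counts (1.83, adjusted p = 0.0774). Among the fits that left out 1 library Gfap passed only without wild-type replicate 6 (1.53, adjusted p = 0.0219).

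These genes went against Mcidas in the 28 other libraries as well. The slope was -0.74 ± 0.08 for Aldh1l1 (edgeR adjusted p = 2.63e-07), -0.86 ± 0.19 for Osmr (adjusted p = 0.00128) and -1.07 ± 0.32 for Gfap (adjusted p = 0.0157). Serpina3n had a slope of -2.18 ± 0.65 (adjusted p = 0.0162) and C3 one of -1.78 ± 0.51 (adjusted p = 0.0127). Of the reactive glia list, 17 of 21 had a slope against Mcidas and none with it. Of the astrocyte list 10 of 20 went against it, where 11.3% of all genes did. Leaving out 1 library brought the reactive glia count to as few as 11. Without the Rfx2-line wild types it was 7, and Gfap and Serpina3n no longer passed (adjusted p = 0.0587 and 0.0998). Without the Rfx3-line wild types, which include replicate 6, Gfap, Serpina3n and C3 had adjusted p of 0.0566, 0.067 and 0.0717.

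Markers of other cell types in the cultures moved in part with the split and in part with single libraries. Pdgfra, the receptor that marks oligodendrocyte progenitors, had 101, 136 and 45.5 CPM in Mcidas-low, 40.01, 4.90 and 5.08 CPM in Mcidas-retained and 2.02 to 104 CPM (median 2.92) in wild-type libraries. Retained replicate 1 nearly reached the lowest Mcidas-low library, and wild-type replicate 6 lay among them. Of the 14 oligodendrocyte lineage genes, 4 lay above without overlap and 1 below, a share above that was near the 22.1% of all genes. Cx3cr1, a microglial receptor, had 37.9, 49.4 and 16.6 CPM in Mcidas-low, 22.8, 11.05 and 13.3 CPM in Mcidas-retained and 10.9 to 88.2 CPM (median 16.3) in wild-type libraries, so it overlapped and was highest in wild-type replicate 6. The choroid plexus gene Kl and the endothelial genes Cldn5 and Pecam1 were at or near 0 in every Rfx3-line library (at most 1, 0 and 9 reads), while the choroid plexus gene Ttr reached 4.30 CPM among the retained libraries. Mural and fibroblast genes were present. Pdgfrb, a receptor of mural cells and fibroblasts, had 127 to 134 CPM in Mcidas-low, 73.8 to 103 CPM in Mcidas-retained and 57.97 to 74.05 CPM in wild-type libraries. Of the 9 endothelium and mural genes, 6 lay above and none below, and their summed level was 281 to 303 CPM in Mcidas-low, 144 to 213 CPM in Mcidas-retained and 151 to 166 CPM in wild-type libraries. Of the 11 fibroblast and meninges genes, 5 lay above and none below, with summed levels of 1128 to 1253 CPM, 442 to 743 CPM and 702 to 838 CPM in the Mcidas-low, Mcidas-retained and wild-type libraries. The part of these cells in the differences between the states was not tested.

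The Notch pathway holds progenitors back from multiciliated differentiation, and its receptors Notch1 and Notch3 were higher in the Mcidas-low libraries. Notch1 had 248, 224 and 215 CPM in Mcidas-low, 145, 170 and 96.6 CPM in Mcidas-retained and 131 to 160 CPM (median 142) in wild-type libraries. Notch3 had 79.5, 67.4 and 74.5 CPM in Mcidas-low, 38.5, 45.2 and 28.9 CPM in Mcidas-retained and 22.01 to 32.0 CPM (median 25.8) in wild-type libraries. Over all knockouts against the wild types Notch3 rose by 1.08 ± 0.23 (log2, SE, edgeR adjusted p = 0.00693). Jag1, a ligand, was higher by 0.73 without overlap, while the ligand Jag2 and the modifier Lfng were lower by 0.84 and 0.43. The target genes did not move as one: Hes1 and Hey1 overlapped (0.18 and -0.23), and Hey2 was higher by 0.38. Hes6, a related gene not counted here as a target, was lower by 0.70. Of the 18 pathway genes, 6 lay above and 4 below without overlap, where 22.1% of all genes lay above and 23.1% below, so the pathway as a whole was near the background. Notch3 is also a mural cell gene. In the 28 other libraries the slopes were -0.29 ± 0.06 for Notch1 (adjusted p = 0.00125) and -0.41 ± 0.13 for Notch3 (adjusted p = 0.0204, or 0.0567 and 0.0664 without Rfx2-line wild type 3 or 5).

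Genes of cell division, sterol synthesis and extracellular matrix were also higher in the Mcidas-low libraries. Mki67, a marker of cycling cells, had 259, 229 and 273 CPM in Mcidas-low, 114, 126 and 87.2 CPM in Mcidas-retained and 100 to 165 CPM (median 127) in wild-type libraries. Of the 30 mitotic genes, 18 lay above and 2 below without overlap, with a median log2 difference of 0.41. Over all genes 22.1% lay above and 23.1% below. The slope of Mki67 on Mcidas was -0.45 ± 0.20 and did not pass the test (edgeR adjusted p = 0.112). In the 28 other libraries 4 of the 30 mitotic genes had a slope against Mcidas and none with it. This was near the 11.3% of all genes that went against it, and leaving out 1 library gave 0 to 6. Of the 23 cholesterol synthesis genes, 16 lay above and none below, with a median of 0.45. In this list, 22 genes had every Mcidas-low library above every wild type and 9 every Mcidas-retained library, where all genes gave 25.3% and 9.11%. Over all 6 knockouts against the wild types 15 of the 23 rose and none fell (edgeR, 9 to 19 when 1 library was left out).

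Thbs2, thrombospondin 2, had 17.3, 13.6 and 14.99 CPM in Mcidas-low, 5.76, 6.02 and 5.35 CPM in Mcidas-retained and 3.99 to 6.29 CPM (median 5.09) in wild-type libraries. Vcan, the proteoglycan versican, had 19.8, 20.2 and 15.03 CPM in Mcidas-low, 7.77, 5.80 and 2.21 CPM in Mcidas-retained and 4.94 to 10.3 CPM (median 5.597) in wild-type libraries. Both genes separated the Mcidas-low libraries from all others. Of the 22 matrix genes, 17 lay above and none below (22.1% and 23.1% of all genes). The median of the list, 0.85, became 0.61 without retained replicate 3. The mural and fibroblast genes given above, Pdgfrb among them, were higher in the same libraries. Junb, an immediate early gene, had 24.4, 26.03 and 26.5 CPM in Mcidas-low, 11.8, 9.80 and 15.05 CPM in Mcidas-retained and 8.65 to 17.1 CPM (median 10.99) in wild-type libraries. Id3, a target of BMP signalling, had 113, 165 and 198 CPM in Mcidas-low, 38.6, 50.8 and 100 CPM in Mcidas-retained and 29.4 to 65.95 CPM (median 45.4) in wild-type libraries. The slopes on Mcidas were -0.83 ± 0.17 for Junb (edgeR adjusted p = 0.000913) and -0.67 ± 0.18 for Vcan (adjusted p = 0.00739), and Thbs2 missed the threshold (-0.38 ± 0.14, adjusted p = 0.0513).

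**Figure D5:**
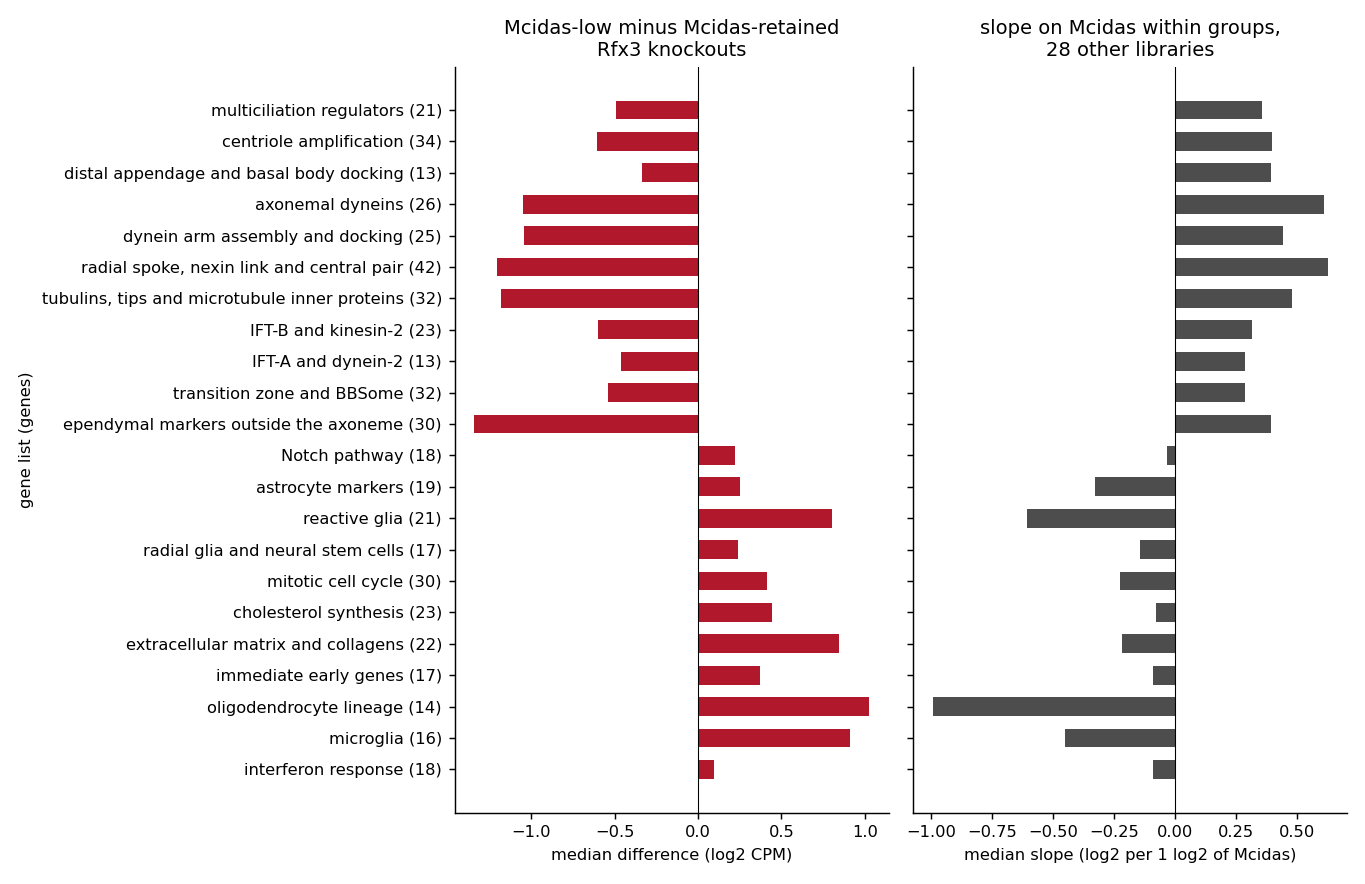
For each gene list (number of genes in brackets), the median log2 difference of Mcidas-low minus Mcidas-retained Rfx3 knockouts (left) and the median slope on Mcidas within groups of the 28 other libraries (right). The regulator list includes Mcidas on the left. Ciliary lists are negative on the left and positive on the right, reactive glia is 0.80 and -0.61, and cholesterol synthesis is 0.45 on the left with a slope of -0.08.

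Over all genes, 595 were at least 2-fold lower without overlap in the Mcidas-low libraries (4.15%) and 431 at least 2-fold higher (3.01%). Of the 593 lower genes that were fitted in the 28 other libraries, leaving out Mcidas, 418 (70.5%) had a slope with Mcidas and none against it, where 13.2% of all genes tested in the Rfx3 line had one. Of the 431 higher genes, 150 (34.8%) had a slope against Mcidas and 1 with it, where 11.5% of all genes went against. These shares were 39.5% and 23.4% without Rfx2-line wild types 1 and 3, against 7.21% and 4.62% of all genes fitted there. They were 17.1% and 14.9% without that whole group, against 3.41% and 2.56%. The Y-linked genes Ddx3y, Eif2s3y, Kdm5d and Uty had the largest increases, by 6.63, 6.40, 6.00 and 5.88 on the log2 scale, and retained replicates 1 and 3 were the knockouts without substantial Y-linked reads. Against retained replicate 2 alone, the median log2 difference was -1.35 for radial spoke, nexin link and central pair genes, where all 3 retained libraries gave -1.20. It was 0.77 for reactive glia genes (0.80 with all 3) and 0.50 for matrix genes (0.85 with all 3). With 1 library on that side, lack of overlap means less, so no count is given, and the part of Y-linked reads was not tested.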

How the data were processed

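Total RNA of cultured ependymal cells was sequenced as TruSeq libraries, per the labels. The authors deposited whole-number counts per gene for each library. Per the submitters' processing notes these involved CASAVA 1.8.2, STAR 2.4, featureCounts 1.4.6 and GRCm38, and no source used here gives the annotation release or strand setting. From the counts, CPM was computed with TMM scaling (edgeR 4.0.16, R 4.3.3), and log2 CPM with a prior count of 2. Genes were kept by edgeR's filterByExpr (minimum count 10, minimum total 15). The 6 Rfx3 knockouts were tested against the 6 wild types, and each gene's slope on Mcidas was tested in the 28 other libraries with group terms, both with edgeR's quasi-likelihood test and Benjamini-Hochberg adjustment over all genes. Mcidas-low and Mcidas-retained libraries were compared by description only, as all 3 below or above all 3. Both tests were checked on simulated data. Named genes were Mcidas, Foxj1, Gfap and Rfx3, the 12 largest decreases and increases without overlap at a mean log2 CPM of at least 1, the 3 largest differences of each list, and regulator and Notch genes. Exon lengths came from GENCODE M21, which matched 21583 of 21647 genes. Promoters came from RefSeq. The members and lists were chosen with earlier results of these data known. Alternatives were DESeq2 1.42.0 scaling and test, no filter, another prior count (0.5), a replicate block, removal of the length trend, a term for Y-linked counts, subsets of groups and leaving out each library. The Y-linked term, the single retained library and the Rfx3 wild types alone were added after the data were seen. Replicate pairs all differed by more than counting noise. Some genes that the rule for named genes would name are not reported here.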

Additional observations from a re-analysis of the deposited data

Results flagged for a closer look

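Single genes and lists were checked among the 6 knockouts and among the 6 wild types, 142 checks in all. In 13 of them a single library lay far from the others, measured as its gap to the nearest library over the whole range. Chance gives about 1 in 20 per check, but the checks share libraries and are not independent. Among the Rfx3 knockouts, Gmnc was low in Mcidas-retained replicate 3 (log2 CPM 6.69, nearest 7.07, ratio 0.628), the library with the transcript length trend. The mean of the adherens and polarity list was low in the same library (-0.65 against the wild-type mean, nearest -0.07, ratio 0.885). Among the wild types, replicate 6 was the library apart for most flags. It was high for Serpina3n (ratio 0.641), C3 (0.651), Slc14a1 (0.668) and Pdgfra (0.826), and low for Deup1 (0.659) and Ccdc192 (0.666). List means were also high there, for astrocyte markers (0.724), reactive glia (0.661), the oligodendrocyte lineage (0.961) and endothelium and mural cells (0.677). Fam50b was high in wild-type replicate 3 (ratio 0.779).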

How the results depend on the processing

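Knockout against wild type called 1517 genes higher and 1857 lower, and leaving out 1 library gave 850 to 2705 higher and 1289 to 2844 lower, with the lowest counts without wild-type replicate 3 and the highest without knockout replicate 3. With the replicate block 795 were higher. Under the block Serpina3n was 2.36 (adjusted p = 0.0748, no longer called) and Deup1 passed (adjusted p = 0.0384). Same-numbered knockout and wild-type libraries had correlated deviations (above 0.1) in 1 of 6 pairs, so the numbers were not taken as pairs. Slopes with Mcidas numbered 1902 and against it 1674. Leaving out 1 library gave 1431 to 2215 with and 1085 to 1654 against Mcidas. Without Rfx2-line wild types 1 and 3 the counts were 1063 and 681, without that group 497 and 374, and in the Rfx2 line alone 1044 went against. The Rfx1 line alone gave 0 and 0 by edgeR (1120 and 961 at an unadjusted p below 0.05), the Rfx3 wild types alone 145 and 546, and those less replicate 6 gave 0 and 0 (437 and 275 unadjusted). Among the Rfx3 wild types alone the slopes turned to -0.032 for Rfx2, -0.40 for Rfx3 and -0.21 for Rsph14, and less replicate 6 to 0.080 for Notch1. Genes at least 2-fold apart numbered 510 to 677 lower and 343 to 697 higher when 1 knockout was left out, and 656 higher with replicate 2 as the single retained library. With the length trend removed, Rbpj differed by -0.017. The causes were not tested. With 3 libraries a state and a split made on Mcidas, these data describe 6 cultures.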
